A study of Drosophila melanogaster with 9 samples.

Results

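The genes described here are 10 genes of the mitotic machinery whose RNA the fly loads into the egg: the mitotic cyclins CycA, CycB and CycB3, the Cdc25 phosphatases twine (twe) and string (stg), the kinase gene polo, the securin pimples (pim), the anaphase activator fizzy (fzy), and the spindle checkpoint genes mad2 and BubR1. They were chosen by name from their known roles, with earlier results of these data known. They are 10 of the 15602 genes listed for each library. Their RNA was measured in ovarian follicles of Drosophila melanogaster by sequencing of poly(A)-selected RNA. The 3 groups, with 3 libraries each, were stage 10 follicles of females carrying a temperature-sensitive mutation of the ecdysone receptor gene EcR (EcRts), wild-type stage 10 follicles and wild-type stage 8 follicles. Each sample was 100 follicles dissected by stage from fertilized adult females, whose age is labelled as 6 to 14 days (the growth protocol gives a minimum of 4 days). All 9 samples carry the strain label Oregon R. The wild type lived at 25 °C, while 2 days after eclosion the EcR mutants went to a restrictive temperature. The sources used here name neither that temperature nor the mutant alleles, so in the EcRts group the genotype and the temperature cannot be told apart, and since the labels describe mutant flies, germline and follicle cells both carried the mutation.

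A mitotic cyclin binds and activates the kinase Cdk1, and a Cdc25 phosphatase removes the inhibitory phosphates that hold that kinase back, so together they start the entry into M phase. Exit runs through the anaphase-promoting complex, a ubiquitin ligase that Fizzy (Cdc20 in other animals) directs to the cyclins and to securin, the inhibitor of separase. The spindle checkpoint proteins Mad2 and BubR1 hold Fizzy back until the chromosomes are attached to the spindle. In the fly ovary the nurse cells are polyploid and do not divide, the oocyte is arrested in meiotic prophase, and the follicle cells have left mitosis before stage 8. The egg nevertheless needs these products for the meiotic divisions and for the rapid nuclear divisions of the embryo, which run on maternal RNA and protein.

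The levels are the FPKM values that the authors deposited for each gene, a fragment count divided by transcript length and by library size, so values of different genes are per length and can be set side by side. The depth implied by the deposited confidence limits was 27.2 to 33.3 M fragments per EcRts library, 17.5 to 21.3 M per wild-type stage 10 library and 18.6 to 21.7 M per wild-type stage 8 library, so genotype, temperature and depth differ together. EcR itself had 21.2, 19.9 and 20.8 FPKM in EcRts, 20.3, 22.6 and 20.1 FPKM in wild-type stage 10 and 19.0, 19.9 and 19.4 FPKM in wild-type stage 8. These values overlapped between the stage 10 groups, and RNA level does not check a temperature-sensitive mutation. Noncoding genes on unplaced or heterochromatic scaffolds (194 genes) made up 29.3 ± 1.87% of the summed FPKM in EcRts, 10.3 ± 0.891% in wild-type stage 10 and 20.5 ± 2.36% in wild-type stage 8 (SD, n = 3 each). FPKM is relative to the total of each library, and each call below was also made under other scalings of the libraries. Germline markers were present as labelled, with 10 of 10 detected and a summed level of 1598 to 1681 FPKM in EcRts, 1628 to 1749 FPKM in wild-type stage 10 and 1852 to 2003 FPKM in wild-type stage 8. In bulk follicles, fewer cells of a type and less RNA per cell cannot be told apart.

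All 10 genes passed the filter on low values (at least 1 FPKM in at least 3 libraries) and had a successful estimate in every library. The implied number of fragments behind a value ran from 138, for pim in a stage 8 library, to 67782, for CycB. The authors' confidence half-width was 0.768% to 17.0% of the value. A gene is called higher or lower where its limma p-value on log2(FPKM + 1), adjusted by Benjamini-Hochberg over all 8238 tested genes, was under 0.05. Each change is a difference between group means on that log2 scale. The labels do not say whether replicates are from separate females or days, so p-values reflect only how these samples spread, which may be technical variation.

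In wild-type stage 10 follicles 9 of the 10 genes were called higher than in wild-type stage 8 follicles, at 1.20 to 5.66 times the FPKM, and CycA was not called. Of all tested genes, 49.2% were called higher and 18.9% lower in the same comparison, and the median change was 0.76 over the 10 genes and 0.20 over all tested genes. In all 10 genes, CycA included, each stage 10 value lay above each stage 8 value, against 51.3% of all tested genes. The largest changes were those of securin (pim), of the checkpoint gene mad2 and of the meiotic Cdc25 twe. With the median of ratios, a scaling described further on, 7 of the 10 genes were called higher, against 31.1% of all tested genes. FPKM here is a share of the poly(A)-selected RNA of a library, and neither RNA per follicle nor poly(A) tail length was measured.

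In EcRts stage 10 follicles, pim, mad2, BubR1, fzy and twe were called lower than in wild-type stage 10 follicles and none was called higher, while 33.8% of all tested genes were called lower and 9.93% higher. Securin and the checkpoint genes were at 0.649 to 0.658 times the wild-type level. The cyclins, stg and polo were not called. The median change was −0.17 over the 10 genes and −0.12 over all tested genes. In 6 genes every EcRts value lay below every wild-type stage 10 value, against 43.2% of all tested genes, and in the other 4 the groups overlapped.

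Set against wild-type stage 8, EcRts stage 10 follicles were called higher in 9 of the 10 genes, against 39.8% of all tested genes called higher and 21.6% lower, and CycA was again not called. Under the scaling outside eggshell, yolk and noncoding scaffold genes CycA too was called higher (0.24, adjusted p = 0.00549 by limma). Under that scaling 60.2% of all tested genes were called higher and 12.1% lower, and their median change, 0.34, was above that of CycA. As deposited, all EcRts values lay above all stage 8 values in 9 genes, against 43.6% of all tested genes. The median change as deposited was 0.57 over the 10 genes and 0.11 over all tested genes. The 3 comparisons share groups with each other, so their values are given side by side and are not independent.

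**Figure D1:**
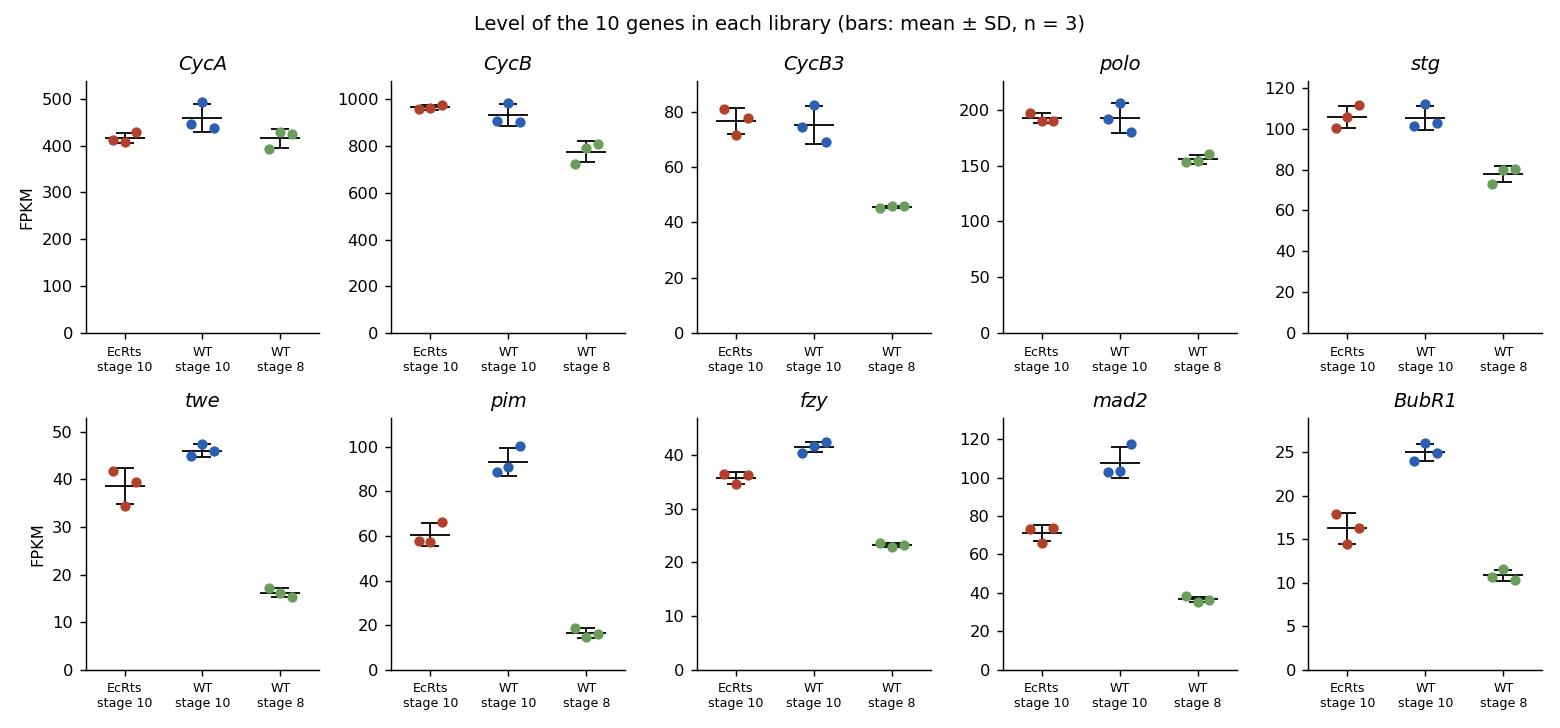
Level of each of the 10 genes in each library, as FPKM on a linear axis from 0, with EcRts stage 10 left, wild-type stage 10 in the middle and wild-type stage 8 right. Points are libraries and bars the mean ± SD of 3 libraries. In pim, fzy, mad2, BubR1 and twe the EcRts points lie between the other groups, while in CycB, CycB3, polo and stg they overlap wild-type stage 10.

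CycB encodes a mitotic cyclin and was the most abundant of the 10 RNAs in all 3 groups. It lies on 2R at 18691026 to 18694490 (build dm3, identifier FBgn0000405). It had 958, 963 and 978 FPKM in EcRts, 907, 986 and 902 FPKM in wild-type stage 10 and 724, 792 and 811 FPKM in wild-type stage 8. Both stage 10 groups lay above stage 8 in every library, and they overlapped each other. The change was 0.26 in wild-type stage 10 against stage 8 (95% confidence interval 0.14 to 0.39, adjusted p = 0.00304 by limma), a call that ended with the median of ratios (0.03, adjusted p = 0.685) and quantile normalization (0.10, adjusted p = 0.332). It was 0.32 in EcRts against stage 8 (0.19 to 0.45, adjusted p = 0.00149), and 0.21 to 0.56 over the alternatives, all called. Between EcRts and wild-type stage 10 it was 0.05, with an interval of −0.07 to 0.18 (adjusted p = 0.459), and CycB was called higher in EcRts under 2 of the other scalings.

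CycA, a mitotic cyclin that acts earlier in mitosis than CycB, lies on 3L at 11819819 to 11826678 (FBgn0000404). It had 412, 406 and 429 FPKM in EcRts, 446, 493 and 438 FPKM in wild-type stage 10 and 392, 429 and 425 FPKM in wild-type stage 8. The wild-type stage 10 values lay just above those of both other groups, and the other groups overlapped. The mean was 416 ± 11.5 FPKM in EcRts, 459 ± 29.5 FPKM in wild-type stage 10 and 415 ± 20.0 FPKM in wild-type stage 8 (SD, n = 3 each). CycA was the only gene of the 10 called in no comparison, with adjusted p = 0.0523 in wild-type stage 10 against stage 8 (change 0.14, interval 0.01 to 0.27), 0.0792 in EcRts against wild-type stage 10 (−0.14, −0.27 to −0.01) and 0.963 in EcRts against stage 8 (0.00, −0.13 to 0.13).

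CycB3 encodes the third mitotic cyclin, needed for anaphase in female meiosis, and lies on 3R at 20694075 to 20696617 (FBgn0015625). It had 80.9, 71.6 and 77.7 FPKM in EcRts, 74.5, 82.5 and 69.0 FPKM in wild-type stage 10 and 45.2, 45.9 and 45.9 FPKM in wild-type stage 8. The stage 8 values were tightly grouped and lay below both stage 10 groups, which overlapped. Among the cyclins it had the largest stage change, 0.71 in wild-type stage 10 (SE 0.0691, adjusted p = 5.23e-05) and 0.73 in EcRts (SE 0.0691, adjusted p = 7.67e-05) against stage 8. The interval of the difference between EcRts and wild-type stage 10 was −0.13 to 0.19 (adjusted p = 0.759).

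Of the Cdc25 phosphatases, String acts in divisions of the embryo and of somatic cells, and Twine is needed for the meiotic divisions of the germline. The gene stg lies on 3R at 25077540 to 25081502 (FBgn0003525) and had 101, 106 and 111 FPKM in EcRts, 102, 112 and 103 FPKM in wild-type stage 10 and 73.1, 80.0 and 80.4 FPKM in wild-type stage 8. The stage 10 groups overlapped and lay above stage 8, with changes of 0.44 in EcRts (adjusted p = 0.000438) and 0.43 in wild type (adjusted p = 0.000315). Over the alternatives these ran from 0.33 to 0.68 in EcRts and from 0.20 to 0.49 in wild type, all called. Between EcRts and wild-type stage 10 the change of stg was 0.01, with an interval of −0.13 to 0.14.

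The gene twe lies on 2L at 16259414 to 16261877 (FBgn0002673). It had 41.8, 34.4 and 39.4 FPKM in EcRts, 44.8, 47.4 and 45.9 FPKM in wild-type stage 10 and 17.1, 16.2 and 15.3 FPKM in wild-type stage 8. No groups overlapped: wild-type stage 10 was highest, EcRts below it, and stage 8 lowest. The level at wild-type stage 10 was 2.84 times that of stage 8 (change 1.45, interval 1.28 to 1.62, adjusted p = 4.73e-06). The EcRts level was 0.837 times that of wild-type stage 10 (change −0.25, −0.42 to −0.08, adjusted p = 0.0249) and 2.38 times that of stage 8 (1.20, adjusted p = 1.77e-05). The call against wild-type stage 10 was lost when wild-type stage 10 replicate 2 (adjusted p = 0.0717), wild-type stage 10 replicate 3 (0.0570) or EcRts replicate 2 (0.0572) was left out. It was also lost under all 3 other scalings of the libraries, described further on (change −0.13 to −0.08, adjusted p 0.167 to 0.552).

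The kinase gene polo, which acts on Cdc25, on centrosomes and on cytokinesis, lies on 3L at 20302754 to 20306566 (FBgn0003124). It had 198, 190.04 and 190.01 FPKM in EcRts, 192, 206 and 180.3 FPKM in wild-type stage 10 and 153, 154 and 160.5 FPKM in wild-type stage 8. The stage 10 groups overlapped and lay above stage 8. The change against stage 8 was 0.30 in both EcRts (adjusted p = 0.00134) and wild-type stage 10 (adjusted p = 0.00102), and the difference between the stage 10 groups was 0.00, with an interval of −0.12 to 0.12. Over the alternatives the change against stage 8 ran from 0.19 to 0.54 in EcRts, all called, and from 0.07 to 0.36 in wild type, where the call ended with the median of ratios.

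The securin gene pim, on 2L at 10362989 to 10364092 (FBgn0003087), had 57.9, 57.2 and 66.4 FPKM in EcRts, 88.6, 90.9 and 100.4 FPKM in wild-type stage 10 and 18.8, 14.6 and 16.1 FPKM in wild-type stage 8. No groups overlapped, and EcRts lay between the wild-type stages. The wild-type stage 10 level was 5.66 times that of stage 8 (change 2.44, interval 2.21 to 2.66, adjusted p = 2.87e-06), the largest change of the 10 genes. The EcRts level was 0.649 times that of wild-type stage 10 (change −0.62, −0.84 to −0.39, adjusted p = 0.00207) and 3.67 times that of stage 8 (1.82, 1.59 to 2.05, adjusted p = 1.27e-05).

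The gene fzy, on 2L at 16310929 to 16313097 (FBgn0001086), encodes the activator through which the anaphase-promoting complex marks securin and cyclins for degradation. It had 36.5, 34.5 and 36.3 FPKM in EcRts, 40.4, 41.6 and 42.4 FPKM in wild-type stage 10 and 23.6, 22.9 and 23.2 FPKM in wild-type stage 8. Again no groups overlapped, with EcRts closer to wild-type stage 10. The change was 0.81 in wild-type stage 10 against stage 8 (SE 0.0388, adjusted p = 3.87e-06), −0.21 in EcRts against wild-type stage 10 (interval −0.30 to −0.12, adjusted p = 0.00402) and 0.60 in EcRts against stage 8 (adjusted p = 1.78e-05). The call against wild-type stage 10 ended under all 3 other scalings (change −0.10 to −0.03, adjusted p 0.0888 to 0.683).

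Of the checkpoint genes, mad2 encodes the protein that binds Fizzy and holds it back while kinetochores are unattached. It lies on 3L at 5805235 to 5806193 (FBgn0035640) and had 73.2, 66.2 and 73.5 FPKM in EcRts, 102.8, 103.2 and 117.3 FPKM in wild-type stage 10 and 38.2, 35.4 and 36.4 FPKM in wild-type stage 8. The groups were well apart, with EcRts in the middle. The level at wild-type stage 10 was 2.94 times that of stage 8 (change 1.53, interval 1.38 to 1.68, adjusted p = 2.87e-06). In EcRts it was 0.658 times the wild-type stage 10 level (−0.60, −0.75 to −0.44, adjusted p = 0.000457) and 1.93 times the stage 8 level (0.93, adjusted p = 2.50e-05).

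BubR1, the kinase-like partner of Mad2 in the complex that blocks Fizzy, lies on 2R at 1856600 to 1862122 (FBgn0263855) and was the least abundant of the 10 RNAs in every group. It had 17.9, 14.5 and 16.3 FPKM in EcRts, 24.0, 26.0 and 24.9 FPKM in wild-type stage 10 and 10.7, 11.6 and 10.3 FPKM in wild-type stage 8. The groups did not overlap, and the EcRts libraries spread the most. The change was 1.13 in wild-type stage 10 against stage 8 (SE 0.0797, adjusted p = 1.14e-05), −0.60 in EcRts against wild-type stage 10 (interval −0.78 to −0.41, adjusted p = 0.000914) and 0.54 in EcRts against stage 8 (adjusted p = 0.000646).

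**Figure D2:**
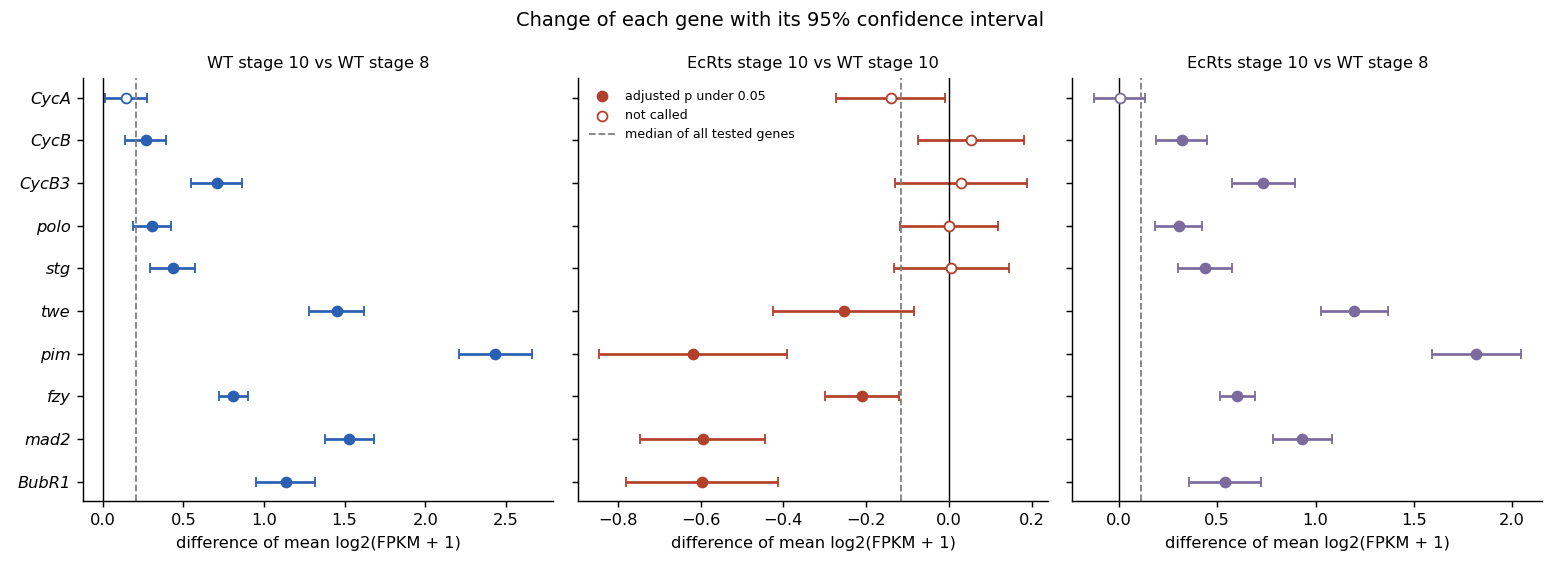
Change of each gene in the 3 comparisons, as the difference of mean log2(FPKM + 1) with its 95% confidence interval from limma, on separate axes. Filled points are called at an adjusted p under 0.05 and the dashed line is the median of all tested genes. In EcRts against wild-type stage 10 the points of pim, mad2 and BubR1 lie near −0.60 and those of CycB, CycB3, polo and stg near 0.

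The 4 genes twe, fzy, mad2 and CycA overlap a gene on the opposite strand in the current annotation, and the kit does not mark strand, so reads of the shared stretch cannot be assigned with certainty. The overlap is 69 bases between fzy and cact, 94 bases between mad2 and CG5537 and 254 bases between twe and EndoGI. CycA holds 1815 bases of CG7264, which had 0.231 FPKM in EcRts, 0.194 FPKM in wild-type stage 10 and 0.403 FPKM in wild-type stage 8 (means). EndoGI had 37.5 ± 2.68 FPKM in EcRts, 49.2 ± 1.75 FPKM in wild-type stage 10 and 40.2 ± 3.23 FPKM in wild-type stage 8 (SD, n = 3 each). CG5537 had 73.5 ± 0.548 FPKM in EcRts, 62.6 ± 3.75 FPKM in wild-type stage 10 and 71.6 ± 2.20 FPKM in wild-type stage 8, so it was higher in EcRts, where mad2 was lower. The gene cact had 117 ± 10.9 FPKM in EcRts, 120 ± 6.79 FPKM in wild-type stage 10 and 80.8 ± 4.36 FPKM in wild-type stage 8. The part of these genes in the values was not tested. No overlap was found for pim or BubR1.

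Within a group the 10 RNAs spanned a wide range of levels. At stage 8 the order was CycB, CycA, polo, stg, CycB3, mad2 and fzy, then pim and twe, whose library values overlapped, and BubR1. In wild-type stage 10 follicles mad2 stood at place 4, overlapping stg, and pim at place 6, above CycB3, twe, fzy and BubR1, with no overlap between neighbours in that lower stretch. In EcRts follicles only pim, twe and fzy stood at other places than at stage 8. The values of CycB3 and mad2 and those of mad2 and pim overlapped in EcRts, and twe and fzy overlapped. Among all tested genes, pim stood at the 81.3rd percentile of level in EcRts, the 87.0th in wild-type stage 10 and the 42.4th in wild-type stage 8, while CycB stayed near the 98th in each.

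The level at stage 8 is the reference of the stage change, so the 2 are linked by construction. The 5 genes called lower in EcRts as deposited (pim, mad2, BubR1, fzy and twe) were also the 5 least abundant at stage 8. Their changes in wild-type stage 10 against stage 8 were 0.81 to 2.44, against 0.14 to 0.71 for the other 5. The EcRts calls of twe and fzy were lost under all 3 other scalings. Among the 5 the order did not hold: BubR1 (10.8 FPKM at stage 8) changed by 1.13 and mad2 (36.7 FPKM) by 1.53. This is a description of 10 genes, and the comparisons share the wild-type stage 10 libraries. The summed level of the 10 genes was 1979 ± 37.6 FPKM in EcRts, 2078 ± 96.4 FPKM in wild-type stage 10 and 1574 ± 67.8 FPKM in wild-type stage 8 (SD, n = 3 each). CycB and CycA together made up 69.8 ± 0.575% of that sum in EcRts, 66.9 ± 0.649% in wild-type stage 10 and 75.6 ± 0.900% in wild-type stage 8. As a share of the summed FPKM of protein-coding genes, the 10 genes held 0.332 ± 0.0108% in EcRts, 0.303 ± 0.0173% in wild-type stage 10 and 0.241 ± 0.0105% in wild-type stage 8.

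Ratios of 2 genes within a library do not change when that library is multiplied by a factor, as in the median of ratios, but quantile normalization can move them. The ratio of twe to stg, the meiotic to the mitotic Cdc25, was 0.365 ± 0.0464 in EcRts, 0.437 ± 0.0130 in wild-type stage 10 and 0.209 ± 0.0225 in wild-type stage 8 (SD, n = 3 each). The ratio of pim to fzy, securin to the activator that targets it, was 1.69 ± 0.124 in EcRts, 2.25 ± 0.105 in wild-type stage 10 and 0.709 ± 0.0820 in wild-type stage 8. At stage 8 securin RNA was thus below that of fzy per length in every library, and at stage 10 it was above it in every library of both genotypes.

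Among the cyclins, the CycB to CycA ratio was 2.32 ± 0.0431 in EcRts, 2.03 ± 0.0290 in wild-type stage 10 and 1.87 ± 0.0361 in wild-type stage 8. The CycB3 to CycA ratio was 0.185 ± 0.0103 in EcRts, 0.164 ± 0.00565 in wild-type stage 10 and 0.110 ± 0.00452 in wild-type stage 8. In both, the EcRts libraries lay above both wild-type groups, unlike the ratios of twe to stg and pim to fzy, in which EcRts lay between them. The ratio of mad2 to BubR1 was 4.39 ± 0.268 in EcRts, 4.32 ± 0.371 in wild-type stage 10 and 3.39 ± 0.284 in wild-type stage 8, and it overlapped between the stage 10 groups. An exact two-sided permutation test of 3 libraries against 3 cannot go below p = 0.1. Of the 15 tests (5 ratios in 3 comparisons), 14 gave that smallest value, with adjusted p = 0.107, so none passed the threshold. The remaining test, mad2 to BubR1 in EcRts against wild-type stage 10, gave p = 0.8 by the same exact test (log2 difference 0.03, SE 0.0880).

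**Figure D3:**
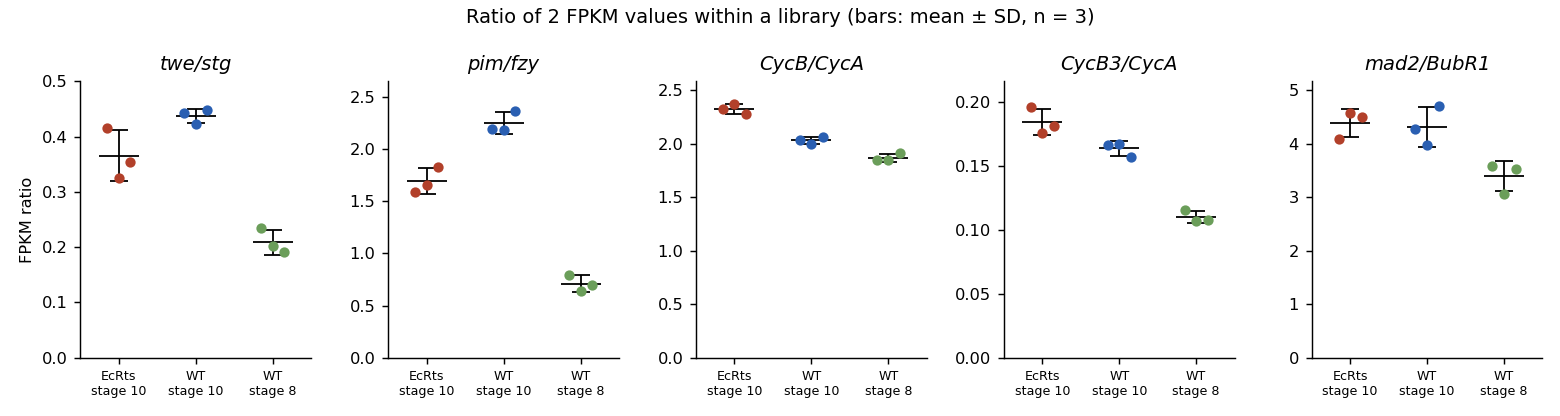
Ratio of the FPKM of 2 genes within each library, on linear axes from 0, with EcRts stage 10 left, wild-type stage 10 in the middle and wild-type stage 8 right. Points are libraries and bars the mean ± SD of 3 libraries. The pim to fzy ratio is 0.709 at wild-type stage 8 and above 1.5 in all 6 stage 10 libraries.

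Because the scaffold fraction and the eggshell genes take different shares of the groups' FPKM, the 10 genes were also read under 3 other scalings: the median of ratios, quantile normalization, and a scaling to the sum outside eggshell, yolk and noncoding scaffold genes. The median of all tested genes in wild-type stage 10 against stage 8 was 0.20 as deposited, −0.01 with the median of ratios or quantile normalization and 0.26 with the last scaling. In EcRts against wild-type stage 10 it was −0.12 as deposited, 0.00 with the median of ratios, −0.01 with quantile normalization and 0.05 with the last scaling. The share of calls that were higher in that comparison was 22.7% as deposited, 51.1% with the median of ratios, 47.8% with quantile normalization and 64.1% with the last scaling. Of all tested genes, 18.7% were called lower in EcRts and 19.6% higher with the median of ratios, 20.9% lower and 19.1% higher with quantile normalization, and 12.9% lower and 23.1% higher with the last scaling. The share of calls that were higher in wild-type stage 10 against stage 8 was 72.3% as deposited, 49.3% with the median of ratios, 50.9% with quantile normalization and 76.6% with the last scaling. In EcRts against stage 8 it was 64.8% as deposited, 50.8% with the median of ratios, 50.5% with quantile normalization and 83.3% with the last scaling.

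The lower levels of pim, mad2 and BubR1 in EcRts were called under all 19 alternatives. Over these, the change of pim was −0.69 to −0.44 (adjusted p 0.00122 to 0.0158), that of mad2 −0.63 to −0.42 (0.000420 to 0.00663) and that of BubR1 −0.67 to −0.42 (0.000725 to 0.0123), all by limma. The calls of twe and fzy were lost under all 3 other scalings, where the adjusted p was 0.167 to 0.552 for twe and 0.0888 to 0.683 for fzy. CycB was called higher in EcRts with the median of ratios (0.18, adjusted p = 0.0403) and with the last scaling (0.24, adjusted p = 0.0108), and under the last scaling so were stg (0.19, adjusted p = 0.0353) and polo (0.18, adjusted p = 0.0380). The change of CycA in EcRts turned sign between alternatives (−0.17 to 0.06) and was called in none.

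For wild-type stage 10 against stage 8, the share of all tested genes called higher was 31.1% with the median of ratios, 31.5% with quantile normalization and 53.0% with the last scaling. There twe, pim, fzy, mad2, BubR1, CycB3 and stg were called higher under all 19 alternatives. CycB lost its call with the median of ratios (0.03, adjusted p = 0.685) and quantile normalization (0.10, adjusted p = 0.332), and polo with the median of ratios (0.07, adjusted p = 0.197). CycA was called higher with the last scaling (0.20, adjusted p = 0.0139) and without wild-type stage 10 replicate 3 (0.18, adjusted p = 0.0394), and its change was −0.09 with the median of ratios.

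**Figure D4:**
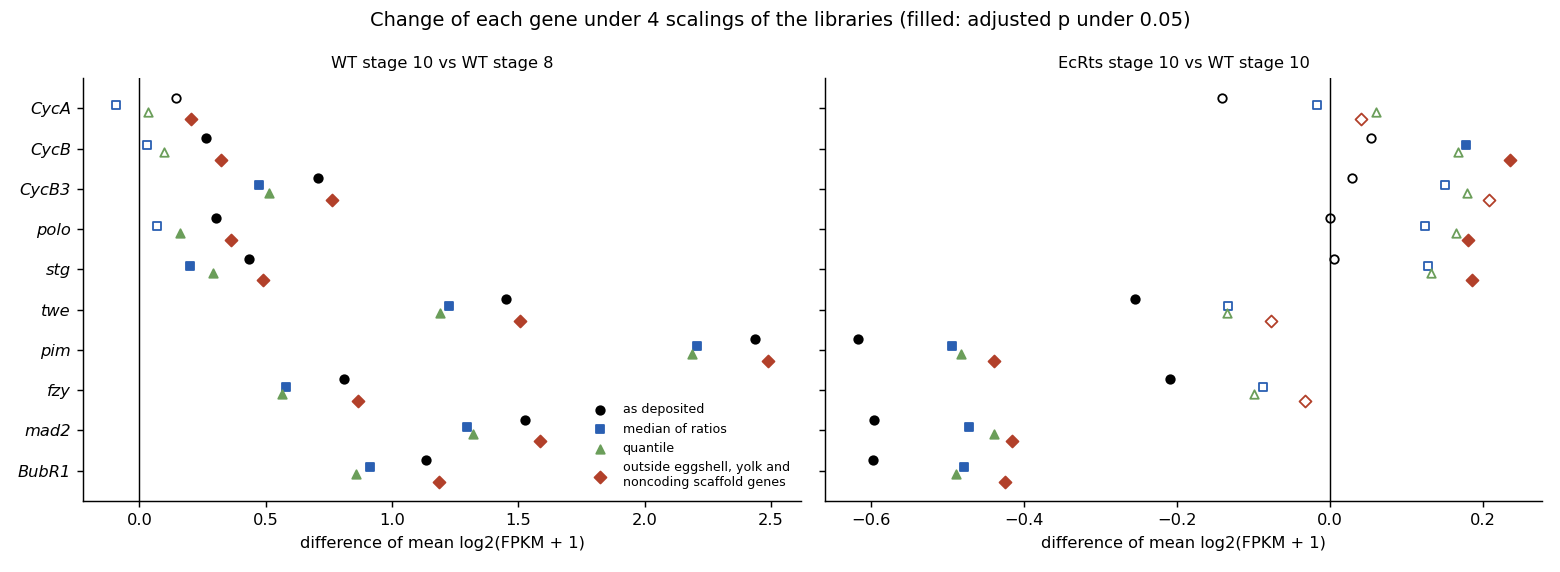
Change of each gene under 4 scalings of the libraries, as the difference of mean log2(FPKM + 1), with wild-type stage 10 against stage 8 on the left and EcRts against wild-type stage 10 on the right. Filled symbols are called at an adjusted p under 0.05. The symbols of pim, mad2 and BubR1 are filled and below 0 under all 4 scalings on the right, while those of twe and fzy are filled only for the values as deposited.

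The partners of these genes were read from 8 lists of 96 genes, chosen with earlier results of these data known. Of the 96 genes, 94 were tested. Wild-type stage 10 follicles had 83 of the 94 called higher than stage 8 follicles, 4 lower and 7 not called, against 49.2% of all tested genes called higher and 18.9% lower, with a median change of 0.69 against 0.20 over all tested genes. EcRts follicles had 58 of the 94 called lower than wild-type stage 10 follicles, 4 higher and 32 not called, against 33.8% of all tested genes called lower and 9.93% higher, with a median of −0.25 against −0.12 over all tested genes. Under the scaling outside eggshell, yolk and noncoding scaffold genes 17 were called lower and 6 higher in EcRts, against 12.9% and 23.1% of all tested genes, with a median of −0.07 against 0.05 over all tested genes. With the median of ratios 39 were called lower and 6 higher (18.7% and 19.6% of all tested genes), and with quantile normalization 40 and 5 (20.9% and 19.1%). In wild-type stage 10 against stage 8, 73 of the 94 were called higher and 8 lower with the median of ratios or quantile normalization. Of all tested genes, 31.1% and 31.5% were called higher there, and 32.0% and 30.4% lower. The counts of each list below are as deposited, with some of those under the other scalings beside them. The untested Nipped-B, the cohesin loader, had 52.3 ± 2.54 FPKM in EcRts, 82.3 ± 6.25 FPKM in wild-type stage 10 and 46.1 ± 2.49 FPKM in wild-type stage 8, and the kinetochore gene Spc105R had 9.35 ± 1.03 FPKM in EcRts, 13.5 ± 0.653 FPKM in wild-type stage 10 and 4.01 ± 0.702 FPKM in wild-type stage 8 (SD, n = 3 each). Both had a failed estimate in a library.

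Among Cdk1 and its regulators, 12 of 15 genes were called higher in wild-type stage 10 than at stage 8 and 1 lower (49.2% and 18.9% of all tested genes). The median of ratios gave 8 higher and 3 lower (31.1% and 32.0% of all tested genes). The kinase subunit gene cdc2 (Cdk1) had 155 ± 8.36 FPKM in wild-type stage 10 and 71.9 ± 7.08 FPKM in wild-type stage 8 (SD, n = 3 each, change 1.10, adjusted p = 1.03e-05 by limma). Its small partner Cks30A, needed for female meiosis, had 60.7 ± 4.27 FPKM in wild-type stage 10 and 19.9 ± 2.08 FPKM in wild-type stage 8 (1.56, adjusted p = 5.47e-06). In EcRts against wild-type stage 10, 6 of the 15 were called lower (33.8% of all tested genes were) and 2 higher. Under the median of ratios or quantile normalization 4 were lower (18.7% and 20.9% of all tested genes), and under the last scaling 3 (12.9%). There cdc2 had 113 ± 4.32 FPKM in EcRts (−0.45 against wild-type stage 10, adjusted p = 0.00247) and Cks30A 38.2 ± 2.45 FPKM (−0.66, adjusted p = 0.000872). The 2 called higher were png (0.27), whose kinase promotes translation of maternal cyclin B RNA, and lok (0.22), the Chk2 kinase gene, while plu, which encodes a partner of the png kinase, was called lower (−0.45, adjusted p = 0.00353). These 3 genes were named after their values were seen, and the calls of png (adjusted p 0.00238 to 0.0580) and lok (0.00472 to 0.105) were lost in 3 and 7 of 19 alternatives, among them without wild-type stage 10 replicate 1 or 3 or EcRts replicate 1, and for lok also without wild-type stage 8 replicate 3 or either other EcRts replicate.

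Of 14 genes of the anaphase-promoting complex and its regulators, 12 were called higher in wild-type stage 10 than at stage 8 and none lower (49.2% and 18.9% of all tested genes). Quantile normalization gave 7 higher and 1 lower (31.5% and 30.4% of all tested genes). The female meiotic activator cortex (cort), a relative of fzy, had 45.1 ± 4.28 FPKM in wild-type stage 10 and 21.2 ± 0.886 FPKM in wild-type stage 8 (change 1.05), and the inhibitor Rca1 had 54.9 ± 1.70 FPKM in wild-type stage 10 and 27.9 ± 1.42 FPKM in wild-type stage 8 (0.95). In EcRts against wild-type stage 10, 7 of the 14 were called lower, against 33.8% of all tested genes, and none higher. With the median of ratios 4 were called lower, with quantile normalization 5 and with the last scaling 1 (18.7%, 20.9% and 12.9% of all tested genes). Here cort had 32.3 ± 2.46 FPKM in EcRts (−0.47, adjusted p = 0.00271) and the subunit gene ida had 12.5 ± 0.280 FPKM in EcRts and 16.0 ± 0.701 FPKM in wild-type stage 10 (−0.33, adjusted p = 0.00361). The call of ida was lost under the scaling outside eggshell, yolk and noncoding scaffold genes (adjusted p = 0.0679).

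All 8 other spindle checkpoint genes were called higher in wild-type stage 10 than at stage 8, as mad2 and BubR1 were, and 7 of the 8 with quantile normalization. Of all tested genes, 49.2% were called higher as deposited and 31.5% with quantile normalization. The 2 largest changes were in the complex that carries dynein to kinetochores. Of its subunits, zwilch had 26.6 ± 1.29 FPKM in wild-type stage 10 and 11.3 ± 0.718 FPKM in wild-type stage 8 (1.17), and rod had 19.6 ± 1.69 FPKM in wild-type stage 10 and 8.41 ± 0.379 FPKM in wild-type stage 8 (1.12). In EcRts, 6 of the 8 were called lower than in wild-type stage 10, against 33.8% of all tested genes, and none higher. Of the 8, 4 were called lower with the median of ratios or quantile normalization (18.7% and 20.9% of all tested genes) and 1 with the last scaling (12.9%). Spindly, which links that complex to dynein, had 9.99 ± 0.882 FPKM in EcRts and 16.9 ± 0.216 FPKM in wild-type stage 10 (−0.71, adjusted p = 0.000196 by limma), and rod had 14.5 ± 0.948 FPKM in EcRts (−0.40, adjusted p = 0.00389). The call of rod was lost under the scaling outside eggshell, yolk and noncoding scaffold genes (adjusted p = 0.0739).

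Cohesin holds sister chromatids together until separase, freed from securin, cuts it. All 11 tested genes of this list were called higher in wild-type stage 10 than at stage 8 (49.2% of all tested genes were), with a median change of 0.72. Separase is encoded by Sse and its regulatory partner by thr. The gene thr had 25.6 ± 0.780 FPKM in wild-type stage 10 and 7.49 ± 1.06 FPKM in wild-type stage 8 (1.66), and Sse had 17.8 ± 0.644 FPKM in wild-type stage 10 and 6.50 ± 0.282 FPKM in wild-type stage 8 (1.33). These targets of securin thus changed in the same direction as pim. In EcRts, 10 of the 11 were called lower than in wild-type stage 10, against 33.8% of all tested genes. This count was 6 with the median of ratios, 7 with quantile normalization and 1 with the last scaling (18.7%, 20.9% and 12.9% of all tested genes). The cohesin subunit gene vtd had 62.7 ± 3.13 FPKM in EcRts and 89.8 ± 6.40 FPKM in wild-type stage 10 (−0.51, adjusted p = 0.000654). The change of thr in EcRts (19.4 ± 3.41 FPKM, −0.40, adjusted p = 0.0416) lost its call in 11 of 19 alternatives, with adjusted p 0.0263 to 0.274.

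Condensin compacts mitotic chromosomes, and the genes of its list did not all change in the same direction. Of 7 genes, 5 were called higher in wild-type stage 10 than at stage 8 and 2 lower (49.2% and 18.9% of all tested genes). Those called higher included CAP-D2 with 16.7 ± 0.574 FPKM in wild-type stage 10 and 6.20 ± 0.721 FPKM in wild-type stage 8 (1.30) and SMC2 with 30.8 ± 0.957 FPKM in wild-type stage 10 and 12.1 ± 1.57 FPKM in wild-type stage 8 (1.28). The 2 called lower were the condensin II subunits Cap-H2, with 4.18 ± 0.258 FPKM in wild-type stage 10 and 11.3 ± 0.288 FPKM in wild-type stage 8 (−1.25, adjusted p = 8.64e-06), and Cap-D3 (−0.39, adjusted p = 0.0102), named after their values were seen. In the fly ovary condensin II is known for unpairing nurse cell chromosomes. In EcRts, 4 of the 7 were called lower than in wild-type stage 10, against 33.8% of all tested genes, and none higher. With the median of ratios 4 were called lower and 1 higher (18.7% and 19.6% of all tested genes), and with the last scaling 1 lower and 1 higher (12.9% and 23.1%). CAP-D2 was at 11.4 ± 0.801 FPKM in EcRts (−0.51, adjusted p = 0.00228) and barr at 18.5 ± 1.95 FPKM in EcRts and 26.1 ± 1.37 FPKM in wild-type stage 10 (−0.48, adjusted p = 0.00552). The call of barr was lost under the scaling outside eggshell, yolk and noncoding scaffold genes (adjusted p = 0.0644).

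At the kinetochore, 11 of 12 tested genes were called higher in wild-type stage 10 than at stage 8 and 1 lower (49.2% and 18.9% of all tested genes). Spc25, a subunit of the microtubule-binding Ndc80 complex, had 40.7 ± 2.35 FPKM in wild-type stage 10 and 11.0 ± 0.165 FPKM in wild-type stage 8 (3.70 times), and cmet, a CENP-E motor, had 25.3 ± 2.45 FPKM in wild-type stage 10 and 8.09 ± 1.25 FPKM in wild-type stage 8 (1.53). In EcRts, 9 of the 12 were called lower than in wild-type stage 10, against 33.8% of all tested genes, and 1 higher. The lower calls numbered 7 with the median of ratios or quantile normalization (18.7% and 20.9% of all tested genes) and 5 with the last scaling (12.9%). The paralogs Nnf1b and Nnf1a, which encode the same subunit of the Mis12 complex, moved apart. Nnf1b had 14.0 ± 1.22 FPKM in EcRts and 29.6 ± 1.38 FPKM in wild-type stage 10 (−1.03, adjusted p = 7.81e-05), the largest change of the 94 genes in that comparison. Nnf1a, named after its value was seen, had 10.3 ± 1.81 FPKM in EcRts and 7.39 ± 0.582 FPKM in wild-type stage 10 (0.42, adjusted p = 0.0258). Leaving out replicate 2 or 3 of wild-type stage 10, or replicate 2 or 3 of EcRts, ended that call, as did dropping the filter on low values and using the replicate number as a block (adjusted p 0.00655 to 0.0792 over the alternatives). Reads that fit both paralogs could be split between them by the authors' counting. Mis12 itself had 15.4 ± 1.35 FPKM in EcRts and 24.3 ± 0.652 FPKM in wild-type stage 10 (−0.63, adjusted p = 0.000531).

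All 9 genes of the Aurora kinases and the central spindle were called higher in wild-type stage 10 than at stage 8 (49.2% of all tested genes were). The Aurora B kinase gene ial had 26.4 ± 2.17 FPKM in wild-type stage 10 and 9.27 ± 1.45 FPKM in wild-type stage 8 (1.42), and borr, its borealin partner, had 78.3 ± 5.23 FPKM in wild-type stage 10 and 30.1 ± 2.17 FPKM in wild-type stage 8 (1.35). In EcRts, 6 of the 9 were called lower than in wild-type stage 10, against 33.8% of all tested genes, and none higher. There were 4 lower and 1 higher with the median of ratios, 3 and 1 with quantile normalization, and 2 and 1 with the last scaling. Of all tested genes, 18.7%, 20.9% and 12.9% were called lower and 19.6%, 19.1% and 23.1% higher under these scalings. In EcRts ial was at 18.0 ± 0.886 FPKM (−0.53, adjusted p = 0.00609) and the cytokinesis regulator tum at 45.5 ± 3.35 FPKM in EcRts and 60.6 ± 2.42 FPKM in wild-type stage 10 (−0.41, adjusted p = 0.00118).

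Among 18 genes of spindle motors, tubulins and centrosomes, 15 were called higher in wild-type stage 10 than at stage 8 and none lower (49.2% and 18.9% of all tested genes). The median of ratios gave 13 higher and 1 lower (31.1% and 32.0% of all tested genes), and quantile normalization 14 higher and 1 lower (31.5% and 30.4%). The spindle gene mei-38 had 37.0 ± 2.29 FPKM in wild-type stage 10 and 12.6 ± 2.05 FPKM in wild-type stage 8 (1.49), and the kinesin-5 motor gene Klp61F had 25.9 ± 1.43 FPKM in wild-type stage 10 and 10.5 ± 0.951 FPKM in wild-type stage 8 (1.23). In EcRts, 10 of the 18 were called lower than in wild-type stage 10, against 33.8% of all tested genes, and 1 higher. With the median of ratios or quantile normalization 6 were called lower (18.7% and 20.9% of all tested genes), and with the last scaling 3 (12.9%). The centrosomal microtubule regulator tacc had 50.9 ± 3.64 FPKM in EcRts and 79.1 ± 1.66 FPKM in wild-type stage 10 (−0.63, adjusted p = 0.000221). The maternal gamma-tubulin gene gammaTub37C had 62.6 ± 1.74 FPKM in EcRts and 95.7 ± 3.95 FPKM in wild-type stage 10 (−0.60, adjusted p = 0.000204), while the other gamma-tubulin gene, gammaTub23C, was the 1 gene called higher, with 16.6 ± 0.473 FPKM in EcRts and 12.6 ± 0.587 FPKM in wild-type stage 10 (0.37, adjusted p = 0.00138). It was named after its value was seen.

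**Figure D5:**
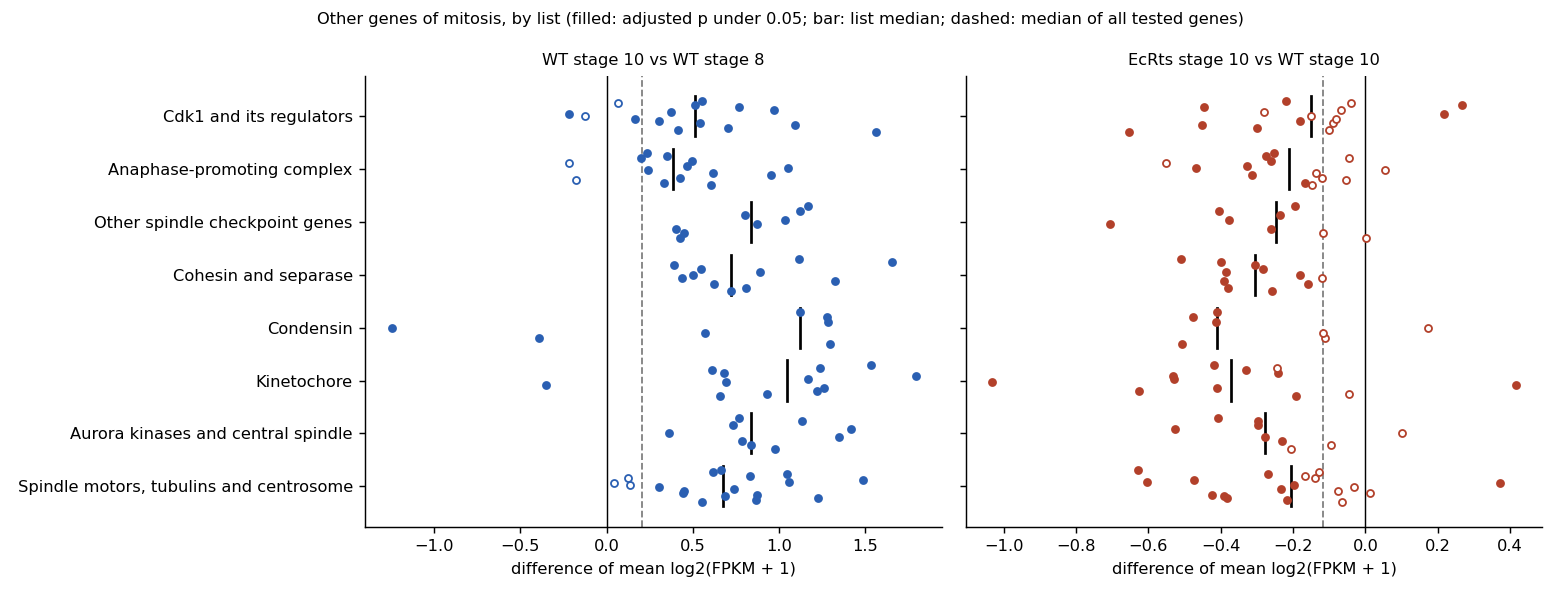
Change of each tested gene of the 8 lists, as the difference of mean log2(FPKM + 1), for wild-type stage 10 against stage 8 on the left and EcRts against wild-type stage 10 on the right, on separate axes. Filled points are called at an adjusted p under 0.05, the black bar is the median of a list and the dashed line the median of all tested genes. All 8 list medians lie above 0.20 on the left and below −0.12 on the right.

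Across the 9 libraries the levels of the 10 genes were related to different degrees. Pearson's r of log2(FPKM + 1) ran from 0.459 for CycA and CycB3 to 0.997 for pim and fzy, with 0.986 for pim and mad2 and 0.976 for CycB and stg. These values describe libraries of 3 groups that share a difference between groups, and 9 points in 3 clusters carry little more than the group means. For the 3 genes with the widest range of group means, the most similar of 7252 other genes were found by the same measure. Closest to pim were O-fut1 (r = 0.998), Snx6 (0.997) and Pcaf (now Gcn5, 0.996), closest to mad2 were the histone pseudogene His-Psi:CR33802 (0.996), CG9135 (0.995) and Nc (now Dronc, 0.995), and closest to twe were pfk (CG15812 in the current annotation, 0.999), ana3 (0.999) and CG7110 (0.998). Among these, O-fut1 had 36.9 ± 1.22 FPKM in EcRts, 42.6 ± 0.696 FPKM in wild-type stage 10 and 23.8 ± 1.57 FPKM in wild-type stage 8, and ana3 had 15.1 ± 1.16 FPKM in EcRts, 17.7 ± 0.906 FPKM in wild-type stage 10 and 7.75 ± 0.184 FPKM in wild-type stage 8 (SD, n = 3 each).

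Markers of other cells were read beside these results. Germarium markers, which come from the region where germ cells still divide, summed to 12.6 to 17.1 FPKM in EcRts, 14.0 to 16.6 FPKM in wild-type stage 10 and 4.88 to 5.49 FPKM in wild-type stage 8. Of the 5, only bam passed the filter, with a mean level 3.13 times as high in wild-type stage 10 as in stage 8. The gene bam made up most of each sum, and the sums overlapped between the stage 10 groups. Below the filter, bgcn was lower at wild-type stage 10 (mean 0.087 FPKM) than at stage 8 (mean 0.217 FPKM). So was hh (0.00594 against 0.1495 FPKM), while en and wg did not exceed 0.0769 FPKM in any library. Muscle sheath markers (7, of which 6 tested) summed to 18.6 to 24.9 FPKM in EcRts, 10.8 to 14.3 FPKM in wild-type stage 10 and 6.11 to 11.2 FPKM in wild-type stage 8, and 4 were called higher in EcRts than in wild-type stage 10. Fat body markers (6, of which 1 tested) summed to 3.94 to 16.2 FPKM in EcRts, 8.03 to 15.8 FPKM in wild-type stage 10 and 2.69 to 3.80 FPKM in wild-type stage 8. Neuron markers stayed under 1.36 FPKM in sum and hemocyte markers under 0.303 FPKM, with He at 0 in every library. Follicle cell markers, 10 of 10 tested, summed to 35456 to 43676 FPKM in EcRts, 38521 to 48820 FPKM in wild-type stage 10 and 11377 to 20671 FPKM in wild-type stage 8, mostly eggshell genes. In wild-type stage 10 against stage 8, 7 of these were called higher and 3 (tj, br and slbo) lower (49.2% and 18.9% of all tested genes). In EcRts against wild-type stage 10, 1 (tj) was called higher and 4 lower (9.93% and 33.8% of all tested genes). The part of these cell types and of depth in the changes of the 10 genes was not tested. In wild-type stage 10 against stage 8 the germline list had 4 genes called higher (vas, nos, bcd and exu) and 4 lower (osk, grk, orb and aub) of 10. Of all tested genes, 49.2% were called higher there and 18.9% lower. With the median of ratios the germline list had 3 higher and 6 lower (31.1% and 32.0% of all tested genes), and with quantile normalization 4 and 5 (31.5% and 30.4%). Between EcRts and wild-type stage 10 the germline list had 1 gene called higher and 2 lower of 10 (9.93% and 33.8% of all tested genes). Under each of the 3 other scalings 5 were higher and none lower. Of all tested genes, 19.6% were called higher and 18.7% lower with the median of ratios, 19.1% and 20.9% with quantile normalization, and 23.1% and 12.9% with the last scaling.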

How the data were processed

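Poly(A)-selected RNA was prepared with the TruSeq RNA v2 kit, per the labels' protocols. Per the submitters' processing notes the tools include TopHat2 2.0.7, Cufflinks 2.02, Bowtie2 2.0.6 and CASAVA 1.8.2, and the build is dm3. The authors deposited gene-level FPKM with confidence limits and a status per gene, and read counts are not used here. Implied fragments were derived from these limits, taken as 2 standard errors, and of those under 50 a share of 56.6% to 60.6% per library lay no further than 0.02 from a whole number, so no count test was run.

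Genes with a failed estimate in a library were left out, and the fit was limma 3.58.1 (R 4.3.3) with a variance trend and 1 mean per group. Adjusted p-values are Benjamini-Hochberg over 8238 genes. Tables were made in Python 3.11.15 with pandas 2.3.3, numpy 2.4.6, scipy 1.17.1 and matplotlib 3.10.9, and the fit was tested on simulated data. A current annotation gave strands and names (14926 identifiers matched), and positions count from 1. The members, lists and tests were chosen with earlier results of these data known. From each list, the 2 called genes with the largest absolute change and a mean of at least 5 FPKM were named for each of the first 2 comparisons.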

Additional observations from a re-analysis of the deposited data

How the results depend on the processing

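Of the results under the alternatives, 970 values kept their side of the threshold or, for counts, moved by less than 1.5 times. Another 28 counts moved by more than 1.5 times, 19 values changed side of the threshold and none reversed a call. Some changes that were not called turned sign, among them that of CycA in EcRts against wild-type stage 10 (−0.17 to 0.06). With the median of ratios, quantile normalization and the scaling outside eggshell, yolk and noncoding scaffold genes, members called lower in EcRts against wild-type stage 10 numbered 3, 3 and 3 (5 as deposited), and members called higher 1, 0 and 3 (0 as deposited). Over all tested genes, calls in that comparison were 1613, 1575 and 1899 higher and 1544, 1718 and 1062 lower under these scalings, against 818 and 2783 as deposited. In wild-type stage 10 against stage 8 they were 2564 higher and 2637 lower with the median of ratios and 2591 and 2504 with quantile normalization, against 4054 and 1557. In EcRts against stage 8 they were 4963 higher and 998 lower with the last scaling, against 3280 and 1782. Of the 94 list genes, those called lower in wild-type stage 10 against stage 8 numbered 8 with the median of ratios or quantile normalization, and 2 to 5 with a library left out (4 as deposited, 2 without wild-type stage 10 replicate 3). Those called higher in EcRts against wild-type stage 10 numbered 2 with no filter and 1 to 4 with a library left out (4 as deposited, 1 without wild-type stage 10 replicate 3, 2 without wild-type stage 10 replicate 1 or any 1 EcRts replicate), and those called lower 17 with the last scaling (58 as deposited). In EcRts against stage 8, 3 were called lower with the last scaling (6 as deposited). The cause was not tested.

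Deviations of same-numbered libraries from their group means correlated at −0.04 to 0.23, and those of other pairs at −0.23 to 0.17. With 3 libraries per group these overlapping ranges cannot decide whether the replicate numbers pair the samples. With the replicate number as a block, members called were 9 higher in wild-type stage 10 against stage 8, 5 lower in EcRts against wild-type stage 10 and 9 higher in EcRts against stage 8, as without it. Of the list genes named in the text, thr and Nnf1a lost their EcRts calls under the block. Over all tested genes the block gave 3978 higher and 1501 lower, 742 higher and 2549 lower, and 3153 higher and 1724 lower in these comparisons. The alternative that kept failed estimates not listed at 0 (8340 genes) was added after seeing the data. Values rest on the deposited FPKM, and read depth is known only as implied from the confidence limits.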
